A study of Chenopodium quinoa with 15 samples.

Results

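Stamens of quinoa (Chenopodium quinoa, variety NL-6) were compared with leaf, root and pistil by RNA-seq. The comparison used 3 stamen libraries of the 15 libraries in the series, set against the mean of 3 leaf, 3 root and 3 pistil libraries. The 3 libraries from leaves treated with NaCl were left out. Every plant was of the same variety, and no group carried a transgene or mutation in the labels. Stamens and pistils were taken from flowers that had just opened on soil-grown plants. Leaves came from seedlings of 14 days, the untreated controls of the salt experiment, which were given water. Roots came from seedlings of 2 days in the sample labels and 3 days in the series design. The roots were grown in the dark on solid medium, so root also differed from the other organs in age, light and medium. The leaf seedlings were also younger than the flowering plants, so leaf differed from stamen and pistil in plant age. Each replicate was a pool of many stamens, many pistils, several roots or the leaves of several seedlings, and p-values measure the spread between such pools.

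The stamen is the male organ of the flower, a filament that carries the anther. In the anther, a nutritive layer, the tapetum, feeds the developing pollen and supplies much of its tough coat. A mature pollen grain stores RNA and protein, and after landing on a stigma it grows a tube whose tip extends by targeted secretion of new cell wall, above all pectin, along actin cables and under the control of calcium, proton fluxes and small GTPases. A whole stamen holds pollen together with anther wall and filament. A lower level of a gene in such bulk tissue cannot tell fewer cells that use the gene apart from less RNA per cell.

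Counted reads per library ranged from 12499775 to 17019602 over the 12 libraries, and from 12499775 to 14630502 in stamen. Genes were named by their deposited titles, the best matches in other species, which were informative for 14275 of 58522 genes (24.4%). Levels are CPM, the counts of a gene relative to its library size. They were scaled by TMM, a method that assumes that most genes do not differ. Since CPM keeps the effect of gene length, it serves only for comparing organs within a gene. The identity of the tissue was checked with marker genes. Some of them, CqCrRLK1L receptor kinases and CqRALF peptides, were reported by the study as high in these organs from the same libraries. For those genes the check is not independent. Of 13 pollen and anther markers, 12 were higher in stamen and 1 had no stamen read, and their summed level was 25817 to 28065 CPM in stamen, 638 to 915 in pistil, 339 to 566 in root and 47.1 to 53.3 in leaf. The 53 leaf markers summed to 97.3 to 149 CPM in stamen against 60496 to 67978 in leaf, and 15 of them had no stamen read. Of these 53, 32 were called lower in stamen and 2 higher. The 13 pistil markers summed to 28.0 to 31.1 CPM in stamen and 334 to 357 in pistil, with 3 called lower in stamen and 2 higher. The 8 root markers summed to 3.42 to 4.40 CPM in stamen and 253 to 377 in root, with 5 at 0 reads in stamen, 2 called lower and 1 higher.

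The stamen differed from the mean of the other organs in most tested genes. Of 35954 genes with enough reads, 10806 (30.1%) were called higher in stamen and 12216 (34.0%) lower, at a Benjamini-Hochberg adjusted p under 0.05 and a log2 fold change of at least 1 in edgeR's quasi-likelihood test. A gene was called highest when it passed against leaf, root and pistil each, which 7186 genes (20.0%) did, and 7492 (20.8%) were lowest in the same sense. Against leaf, root and pistil alone, 31.9%, 30.8% and 29.9% of the tested genes were higher and 35.8%, 36.5% and 35.8% lower. In 9674 genes (26.9%) all 3 stamen libraries lay above the 9 others, and in 9474 (26.4%) below them. The differences were often very large. A fitted difference of at least 256-fold was reached by 1000 of the higher and 281 of the lower genes. These fitted sizes have no bound where an organ had 0 reads. That was so in at least 1 other organ for 1762 of the genes called higher, and in stamen for 2409 of the tested genes. The call is against a mean of 3 organs on the log scale, and 1236 genes called higher had a larger mean CPM than stamen in at least 1 organ, as 1180 genes called lower had a smaller one. Counts of calls among the members of a gene list below are to be read beside these shares of all tested genes.

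The balance of higher and lower genes depended on the scaling. TMM assumes that most genes do not differ, whereas 30.1% of the tested genes were called higher and 34.0% lower. That assumption was not met by these calls, so CPM and log2 values rest on a scaling that is itself uncertain. The TMM factors were 0.477 to 0.494 in stamen and 0.835 to 1.78 in the other organs. With the total library size instead of TMM, the median log2 difference over the whole of the tested genes moved from -0.28 to -1.67, and the calls from 10806 higher and 12216 lower genes to 5760 higher and 19857 lower, so that 22.5% in place of 46.9% of the calls were higher. Of the genes called higher, 5760 were called higher under both scalings, and of the lower genes all 12216 were called lower under both. No call turned to the other direction. Stamen had the smallest TMM factors, so the total library size lowers stamen levels against every other organ. A gene called lower with TMM could thus hardly lose its call, and this is no check on the lower genes. Counts of higher genes in a list are therefore given below with the number called under both scalings, which was 16.0% of all tested genes. The share of reads that a group of genes held uses no TMM factor. Comparing such shares between organs therefore amounts to scaling by the total library size.

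Fewer genes held 50% of the reads in stamen than in the other organs. The number of genes that together held 50% of the counted reads was 380, 398 and 381 in the 3 stamen libraries. In leaf this took 775 genes on average, in root 2354 and in pistil 3509, and the 3 libraries of each organ were close together. No library of another organ came near the stamen range, and the difference of the means, 386 ± 10.1 (SD, n = 3) against 2213, gave p = 0.0273 in an exact two-sided permutation test over the 12 libraries, which counts the assignments with an absolute difference at least as large. No other assignment gave so low a mean, and the smaller tail counted on both sides gave 0.00909, the smallest value of that kind. The test exchanges single libraries between organs, although the libraries of each organ lay close together. Against 1 organ alone, 3 libraries against 3 cannot go below p = 0.1, and each of the 3 exact permutation tests gave that value.

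**Figure D1:**
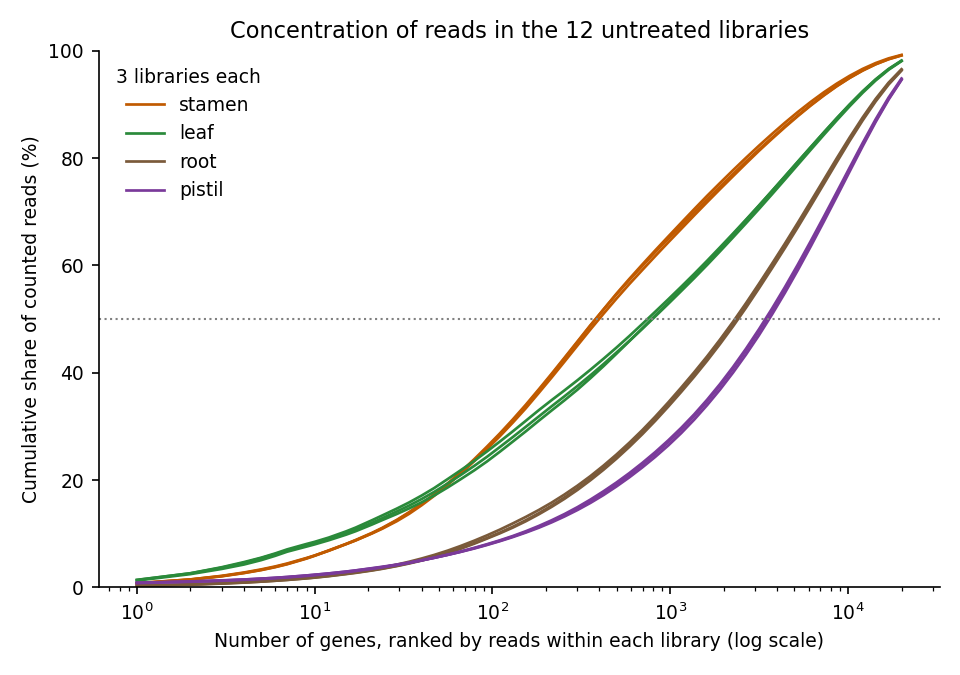
Cumulative share of counted reads (%, vertical axis) against the number of genes, ranked by reads within each library (log scale), with 1 line for each of the 12 untreated libraries. The 3 stamen lines cross 50% (dotted) at 380 to 398 genes and the 3 pistil lines at 3434 to 3604, while the leaf lines lie above the stamen lines over the first 10 genes.

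No single gene dominated. The most abundant gene of each stamen library held 0.744% to 0.804% of its reads, less than the leading gene of leaf (1.28% to 1.41%). The 10 genes with the most stamen reads held 5.91%, 5.85% and 5.94% of the reads of the 3 stamen libraries. The same 10 genes held 0.405% to 0.612% of the pistil reads, at most 0.00246% of the root reads and at most 0.00104% of the leaf reads. The 20 leading genes held 9.73% to 9.84%, the 50 leading genes 17.7% to 18.0%, and the 100 leading genes 26.8% to 27.3%. The reads of stamen were thus spread over a broad tier of abundant genes, whereas the 10 leading leaf genes alone held 8.02%, 8.23% and 8.498% of the leaf reads. With each library's own 100 leading genes, leaf was close to stamen, at 24.2% to 26.1% against 26.8% to 27.3%.

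Of the 100 leading stamen genes, 44 had a title and 51 a KEGG ortholog number, against 24.4% and 29.9% of all genes, and 33 had neither. Quinoa is an allotetraploid with duplicated genes, and 57 of the 100 shared their best match with another of them, so that it is uncertain how reads were divided among similar copies. All 100 genes were highest in stamen, which follows in part from the way they were chosen, and 5 had no read in leaf or root. In pistil their median level was 2.34% of that in stamen, and 96 of 100 were under 5%. Of the pistil libraries, replicate 1 had the highest level for 97 of the 100 genes, and the 100 genes held 3.19% of its reads, against 2.28% and 2.40% in the other two. The summed pollen and anther markers were also highest in pistil replicate 1, with 915 CPM against 638 and 678, and their part in the pistil levels was not tested.

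Pectin-modifying enzymes led the stamen reads. The gene with the most reads, CqNL-6_043829 (chromosome 6 from 66411471 to 66427641 in the NL-6 genome), had no title and carried the KEGG number of pectinesterase, the enzyme that removes methyl groups from pectin. It held 0.781%, 0.744% and 0.804% of the stamen reads. Its level was 16292, 15082 and 16854 CPM in stamen and 380 ± 78.3 CPM in pistil (SD, n = 3), with 9 reads in the leaf and 3 reads in the root libraries together. The stamen values were thus close to each other and far above all others, 127-fold over the mean of the 3 organs and with a log2 fold change of 5.40 over pistil (standard error 0.26, adjusted p = 1.26e-12, edgeR quasi-likelihood with Benjamini-Hochberg adjustment). The next gene, CqNL-6_027511 (pectinesterase 2-like, chromosome 18 from 21181420 to 21183514), was as even over the stamen libraries, with 14783, 14036 and 14331 CPM. It had 263 ± 64.9 CPM in pistil, with 4 leaf and 6 root reads. Its log2 fold change over pistil was 5.77. CqNL-6_056033 (pectinesterase 2-like, chromosome 10 from 49534948 to 49536418) held 0.546% ± 0.0059 of the stamen reads.

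Of the other genes among the first 10, 2 were exopolygalacturonases and 1 was a further pectinesterase by KEGG number. CqNL-6_008234 (exopolygalacturonase clone GBGE184-like, chromosome 3 from 16690463 to 16693732), which cuts pectin chains from their ends, held 0.526%, 0.544% and 0.497% of the stamen reads, and its pistil level was 247 ± 53.3 CPM, with 8 reads in leaf and 3 in root. CqNL-6_023573 had no title and the KEGG number of the same enzyme, and held 0.540% ± 0.0097. Neither overlapped with another organ. CqNL-6_015284 (KEGG number of L-ascorbate oxidase) held 0.643% ± 0.026 and CqNL-6_011044 (KEGG number of beta-amylase) 0.576% ± 0.055. CqNL-6_034393 and CqNL-6_025773, at 0.565% ± 0.016 and 0.537% ± 0.079, had neither title nor KEGG number. By KEGG number, 9 pectinesterases among the 100 leading genes held 3.75% of the stamen reads, 4 exopolygalacturonases 1.44%, 4 peroxidases 1.26%, 4 proteins of the pathogenesis-related group 1 type 1.10% and 4 pectate lyases 0.948%.

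**Figure D2:**
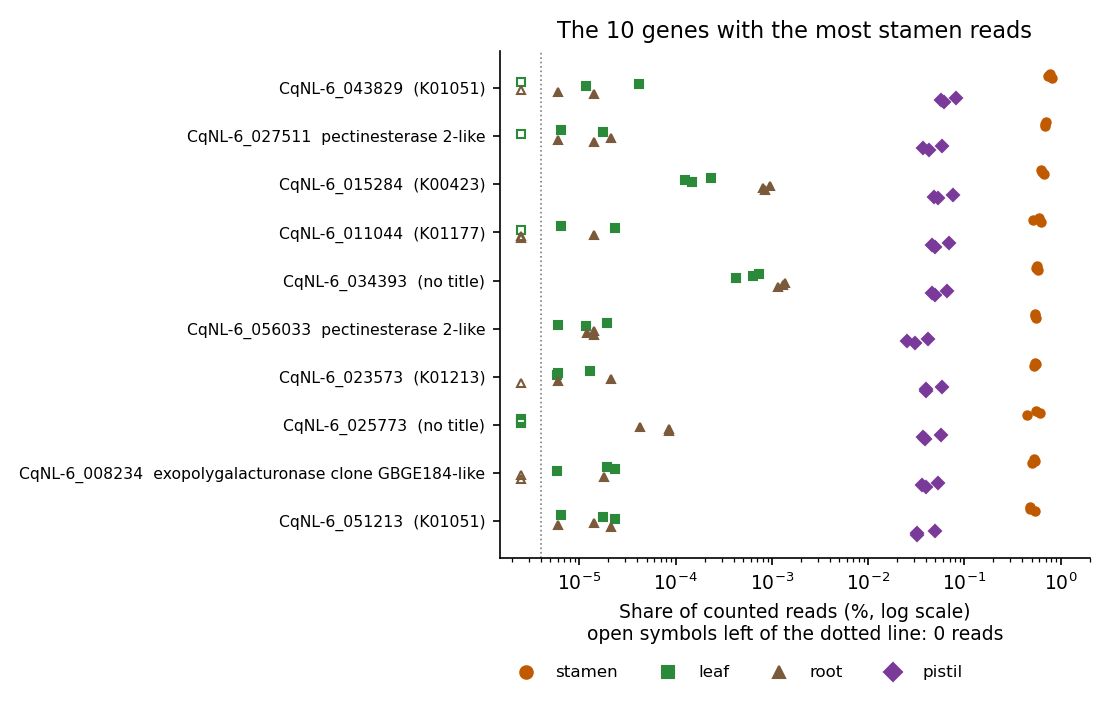
Share of counted reads (%, log scale) of the 10 genes with the most stamen reads in each of the 12 untreated libraries, 1 symbol per library, with open symbols for 0 reads and the KEGG ortholog number where a gene has no title. The stamen points lie between 0.451% and 0.804%, the pistil points below 0.1%, and the leaf and root points of every gene far below its pistil points.

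Corrected for gene length, other and shorter genes came first. In deposited FPKM, which divides the counts by gene length and library total, the highest stamen level was that of CqNL-6_006029 with 12167 ± 1200.5 FPKM (SD, n = 3), a gene without title or KEGG number on chromosome 2. CqNL-6_025773 followed with 10854 ± 1605 FPKM. The titled genes among the first 10 were CqNL-6_013877 (stress-induced protein KIN2-like, 8010 ± 327 FPKM) and CqNL-6_002836 (a lipid-transfer protein of the 2S albumin superfamily, 7414 ± 280 FPKM). KIN2-like had 1 leaf read, 0 root reads and 47.4 ± 19.2 CPM in pistil against 3398, 3281 and 3170 CPM in stamen. CqNL-6_017305, at 9642 ± 373 FPKM, was the exception among these genes, since it was well expressed in every organ. It stood at 7065 ± 233 CPM in stamen, 230 ± 82.3 in leaf, 243 ± 33.5 in root and 188 ± 32.5 in pistil, with no overlap and 32.1-fold over the mean of the others.

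Across the tested titled members, pectin enzymes were widely high in stamen. Of 37 tested pectinesterases and their inhibitors (of 53 titled), 28 were higher, 22 of them under both scalings, and 2 were lower. The share called higher in this list was thus above the 30.1% of all tested genes. However, 16 of the 53 titled genes had no stamen read. The list summed to 57334 to 61298 CPM in stamen, 1006 to 1531 in pistil, 102 to 111 in root and 73.4 to 91.9 in leaf. Members could thus pass the read filter through their stamen reads, which by itself favours a high share called higher. Their median log2 difference was 5.42 with TMM, 4.83 with genes at few reads set to their bound and 3.90 with the total library size, against -0.28, -0.27 and -1.67 over all genes. They held 2.87% ± 0.050 of the stamen reads, 0.213% in pistil, 0.0147% in root and 0.00695% in leaf. Of 36 tested polygalacturonases, 21 were higher (18 under both scalings) and 6 lower. Of 12 tested pectate lyases, which cleave demethylated pectin, 7 were higher (6 under both) and 2 lower. With genes added by KEGG number, an alternative chosen after seeing the data, the counts were 42 higher and 7 lower of 63 for pectinesterases, 23 and 8 of 45 for polygalacturonases, and 12 and 5 of 24 for pectate lyases, whose median log2 difference was then 1.03. Among the titled pectate lyases, CqNL-6_050363 (pectate lyase-like) had 3644, 3597 and 3844 CPM in stamen, 85.2 ± 19.7 in pistil, 1 read in leaf and 0 in root.

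Other wall enzymes were more mixed. None of 9 tested cellulose synthases was higher and 6 were lower, with a median log2 difference of -1.24. Expansins, which loosen the wall, were split, with 4 of 19 higher, all 4 under both scalings, and 2 lower. Callose synthases, which make the inner wall of the pollen tube, were higher in 3 of 5 titled genes (2 under both scalings), but with genes added by KEGG number in 6 of 20, with 6 lower. The titled genes held 0.0127% of the stamen reads, 0.0155% in pistil, 0.0148% in root and 0.00740% in leaf. Their summed TMM level was instead highest in stamen, at 239 to 275 CPM against 82.2 to 120 in the other organs. With genes added by KEGG number the shares were 0.197%, 0.147%, 0.109% and 0.0573%. Secretory peroxidases were also split, with 19 of 61 higher (16 under both) and 17 lower. These were 31.1% and 27.9%, near the 30.1% and 34.0% of all tested genes. The list yet held 1.40% ± 0.065 of the stamen reads, 0.785% in root, 0.161% in pistil and 0.019% in leaf. Most of the stamen share came from 4 genes titled cationic peroxidase 1-like, which held 1.26%. One of them was CqNL-6_046326 (chromosome 3 from 73661768 to 73664475), with 7705, 7362 and 6949 CPM in stamen, 151 ± 33.3 in pistil, 1 read in leaf and 0 in root. Peroxidase 57-like, CqNL-6_018587, was high in root alone, with 0 stamen reads and 244.5, 330.4 and 460.4 CPM in root.

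**Figure D3:**
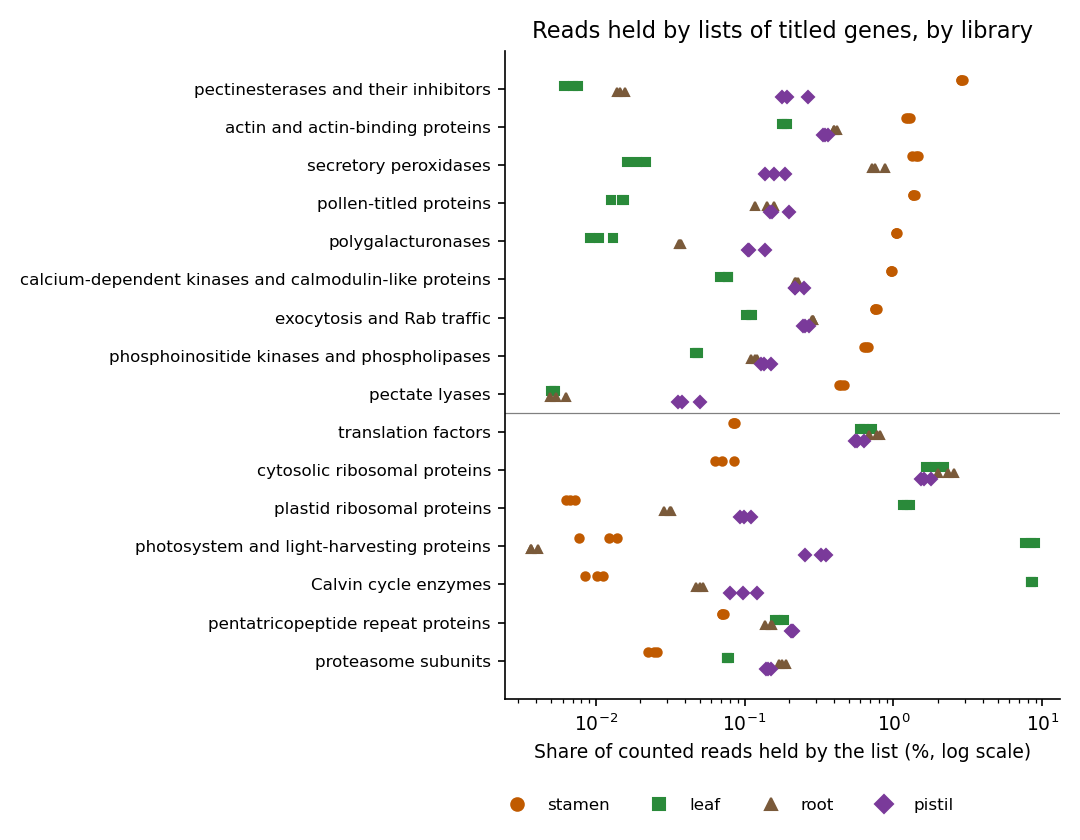
Share of counted reads (%, log scale) held by all titled members of 16 gene lists in each of the 12 untreated libraries, 1 symbol per library. The upper 9 lists hold more of the stamen reads than of any other organ, and the lower 7 hold less than in leaf and pistil, with photosystem proteins the only one of these 7 lower in root than in stamen.

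Genes titled for pollen were high as a set with exceptions. Of 13 tested genes of this kind, 8 were higher, all 8 under both scalings, and 1 was lower. They held 1.37% ± 0.022 of the stamen reads, 0.166% in pistil, 0.139% in root and 0.0144% in leaf. All 4 pollen-specific leucine-rich repeat extensins, wall proteins of the pollen tube, were highest in stamen, at mean levels of 1984 to 5585 CPM. One of them, CqNL-6_017888 (chromosome 17 from 8072716 to 8074815), had 5490, 4882 and 5753 CPM in stamen, 161 ± 33.7 in pistil and no read in leaf and root. Its log2 fold change over pistil was 5.06 (standard error 0.21, adjusted p = 1.50e-11, edgeR). The 4 genes titled as Che a pollen allergens, named after the weed Chenopodium album, were also all highest in stamen, but only 2 under both scalings. They were led by CqNL-6_033177 (Pollen allergen Che a 1) at 6076, 5938 and 5672 CPM against 131 ± 31.1 in pistil, with 5 leaf and 6 root reads. CqNL-6_022702 (COBRA-like protein 10, needed in Arabidopsis for pollen tube growth) had 2691, 2545 and 2948 CPM in stamen, 73.4, 52.2 and 54.4 in pistil and no read in leaf and root. In each of the genes named here by identifier, the lowest stamen library was far above the highest library of any other organ.

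Some genes of tapetum and floral identity were higher too. Tetraketide alpha-pyrone reductases, enzymes that make precursors of the pollen coat, were higher in 5 of 7 tested genes, 3 of them under both scalings. CqNL-6_055177 (tetraketide alpha-pyrone reductase 2-like) had 464.5, 461.9 and 445.7 CPM in stamen against 9.51 ± 2.12 in pistil, 1 root read and 0 leaf reads. Of 43 tested MADS-box factors, 26 were higher (19 under both scalings) and 4 lower, with a median log2 difference of 2.07, or 0.67 with the total library size. Their share of the reads was larger in pistil (0.107%) than in stamen (0.0898%), while their summed TMM level was larger in stamen. That level was 1829 to 1888 CPM in stamen and 602 to 624 in pistil. Both genes titled PISTILLATA, the factor that sets petal and stamen identity in Arabidopsis, were highest in stamen. The more abundant one, CqNL-6_017091 (chromosome 5 from 11705261 to 11719277), had 288.6, 308.1 and 253.5 CPM in stamen, 2.64 ± 1.14 in pistil, 3 root reads and 1 leaf read, with a log2 fold change of 6.75 over pistil (standard error 0.24, adjusted p = 2.22e-14, edgeR). All 4 tested genes titled AGL15 were highest in stamen, 2 of them under both scalings, at 25.2 to 77.1 CPM. Their pistil levels reached up to 17.5 CPM.

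Signalling genes of tip growth were mixed, and the calcium-dependent kinases were mostly high. Of 36 tested calcium-dependent kinases, calmodulins and their relatives, 24 were higher (18 under both scalings) and 4 lower, with a median log2 difference of 2.43, or 1.03 with the total library size. CqNL-6_034341 (calcium-dependent protein kinase 17-like, chromosome 4 from 70438790 to 70441699) had stamen levels of 3601, 3185 and 3798 CPM and a pistil level of 90.9 ± 20.2, with 9 reads each in leaf and root. The stamen libraries lay far above the rest, with a log2 fold change of 5.28 over pistil (standard error 0.22, adjusted p = 1.17e-13, edgeR). Of 48 tested phosphoinositide kinases and phospholipases, 24 were higher (15 under both) and 11 lower. CqNL-6_004635 (phosphatidylinositol 4-kinase gamma 4) had 5459, 5091 and 5612 CPM in stamen, 143 ± 26.7 in pistil, 40.7 ± 7.67 in root and 4.29 ± 0.933 in leaf, a log2 fold change of 7.53 over the mean of the others (standard error 0.15, adjusted p = 1.56e-18, edgeR). The ROP GTPases, switches of polar growth, and their regulators were evenly split, with 12 of 28 higher (11 under both) and 12 lower. CqNL-6_014263 (CRIB domain-containing protein RIC10, a ROP effector) was among the higher, with 959.3, 922.9 and 954.9 CPM in stamen against 20.8 ± 5.01 in pistil, 2 reads in root and 0 in leaf. Of 40 tested ion channels and calcium pumps, 18 were higher (13 under both) and 8 lower. Their share of the reads was 0.0685% in stamen, 0.0802% in root, 0.078% in pistil and 0.0539% in leaf. In summed TMM level stamen was highest, with 1378 to 1467 CPM against 437 to 655 in the other organs.

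Genes of the secretory pathway were mostly higher, and actin genes were mixed. Of 73 tested genes of exocytosis and Rab traffic, 51 were higher and 7 lower, but only 30 stayed higher with the total library size. CqNL-6_024297 (exocyst complex component EXO70B1-like, part of the complex that tethers vesicles to the plasma membrane) had 1795, 1675 and 1920 CPM in stamen, 43.9 ± 10.2 in pistil, 6.55 ± 1.10 in root and 0 reads in leaf. CqNL-6_049766 (putative clathrin assembly protein At1g03050) reached 2354 ± 187 CPM in stamen and 65.5 ± 11.2 in pistil. Of 41 tested actins and actin-binding proteins, 21 were higher (19 under both scalings) and 9 lower. The median of this list was 1.04 with TMM and turned to -0.36 with the total library size. CqNL-6_001165 (LIM domain-containing protein PLIM2c-like, an actin bundler of pollen in Arabidopsis) had 3397, 3598 and 3328 CPM in stamen, 69.3 to 100.001 in pistil, 11.8 ± 1.58 in root and 2.71 ± 0.506 in leaf. CqNL-6_013177 (actin-11) had 2786, 2941 and 3178 CPM in stamen and 22.9 to 69.3 CPM on average in the other organs, with a log2 fold change of 6.19 (standard error 0.13, adjusted p = 2.81e-18, edgeR). Tubulins and kinesins went the other way more often by count, with 9 of 34 higher (6 under both) and 16 lower. Their share of the reads was nonetheless largest in stamen, at 0.502% ± 0.031 against 0.444% in pistil, 0.346% in root and 0.230% in leaf. Most of the stamen share came from 2 members among the 100 leading genes, which held 0.442%.

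Among transporters, the cation/H+ antiporters stood out, a subgroup that was singled out after its values were seen and has no test of its own. Of 19 tested antiporters (of 28 titled), 18 were highest in stamen, 17 of them under both scalings. The median log2 difference was 8.54 with levels below 3 reads over an organ's libraries set to that bound. Mean levels in this subgroup reached at most 0.704 CPM in leaf, 5.43 in root and 15.6 in pistil. Members could thus pass the read filter through their stamen reads alone, which by itself favours a high count of genes highest in stamen. The remaining one, CqNL-6_053144 (cation/H(+) antiporter 20), was read in root and in no other organ. The most abundant, CqNL-6_016922 (cation/H(+) antiporter 15), had mean levels of 534.5 CPM in stamen and 15.6 in pistil, and 0.419 in root and 0.704 in leaf. Of 22 tested genes with the KEGG number of plasma membrane ATPases, the pumps that set the proton gradient, 11 were higher (7 under both scalings) and 1 lower, and 2 of them were among the 100 leading genes and held 0.438% of the stamen reads. The 6 tested genes whose title reads plasma membrane ATPase were the exception, with 0 higher and 1 lower. Of 16 subunits of the vacuolar pumps, 9 were higher (4 under both scalings) and 1 was lower. Of 52 tested sugar transporters and invertases, 29 were higher (19 under both) and 8 lower. CqNL-6_031555 (sugar transport protein 10-like) had 1023, 989.7 and 879.6 CPM in stamen, 23.3 ± 6.09 in pistil, 1 read in leaf and 0 in root.

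**Figure D4:**
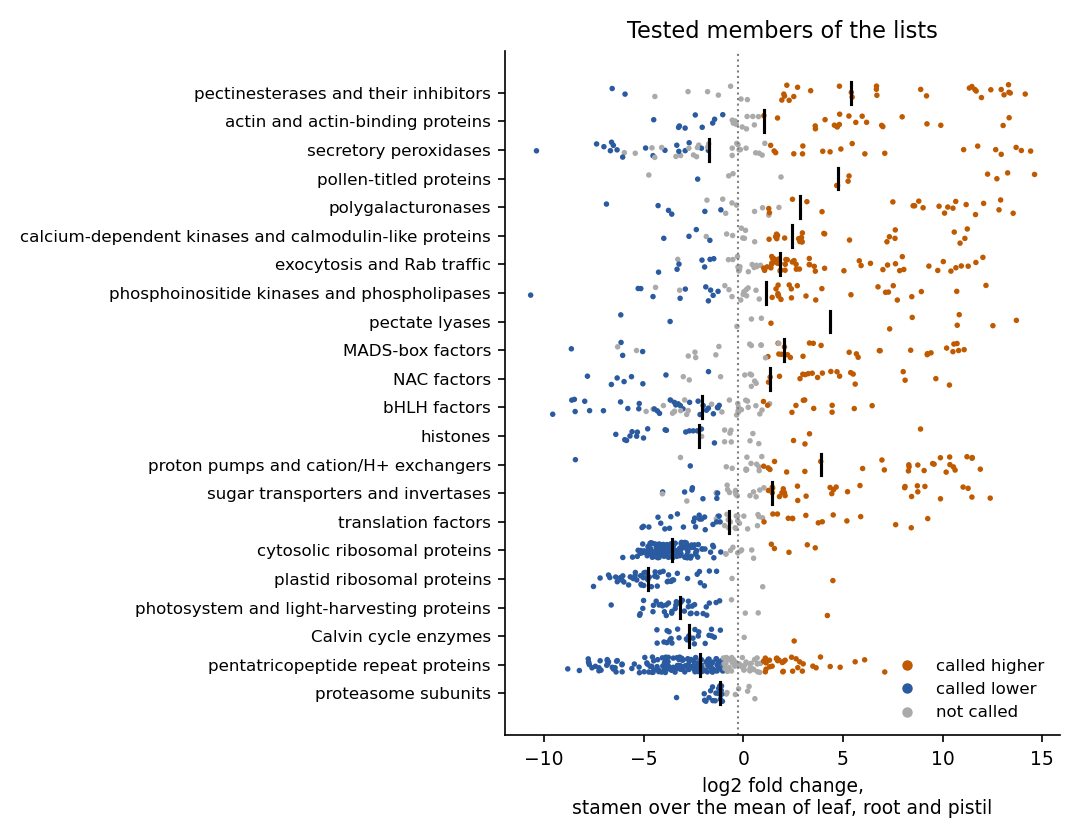
Log2 fold change of stamen over the mean of leaf, root and pistil (horizontal axis, TMM scaling) for each tested member of 22 gene lists, coloured by its call, with a black bar at the median of the list and a dotted line at the median of all tested genes, -0.28. Pectinesterases spread to the right with a median of 5.42, and ribosomal proteins of the cytosol and the plastid cluster on the left with medians of -3.56 and -4.79.

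Ribosomal proteins were low almost throughout. Of 136 tested proteins of the cytosolic ribosome, 122 were lower in stamen and 5 higher (2 under both scalings), where 34.0% of all tested genes were lower, and 117 were lowest of the 4 organs. In 123 of the 136 all 3 stamen libraries lay below the 9 others. Over all tested genes, 20.8% were lowest and 26.4% lay below the others in this way. Together they held 0.0732% ± 0.011 of the stamen reads (SD, n = 3), against 1.91% in leaf, 2.29% in root and 1.64% in pistil. CqNL-6_016998 (60S ribosomal protein L3, chromosome 1 from 81779527 to 81782795) had 21.3, 31.2 and 17.5 CPM in stamen, 757 ± 113 in leaf, 520 ± 58.1 in root and 277 ± 25.0 in pistil, a log2 fold change of -4.35 (standard error 0.19, adjusted p = 1.57e-13, edgeR). A few copies went against this. CqNL-6_033489 (60S ribosomal protein L37a-2) was highest in stamen, with 55.5, 64.4 and 60.1 CPM against 13.5 ± 0.948 in pistil, 4.55 ± 0.868 in leaf and 4.39 ± 0.431 in root. Translation factors were less uniform, with 23 of 56 lower and 15 higher (11 under both scalings), beside 34.0% and 30.1% of all tested genes. Their abundant members were low. CqNL-6_000017 (elongation factor 1-alpha) had 53.0, 50.9 and 45.8 CPM in stamen, 765 ± 120 in leaf, 819 ± 83.9 in root and 191 ± 21.8 in pistil. Its log2 fold change was -3.30 (standard error 0.15, adjusted p = 2.53e-13, edgeR).

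Plastid functions were low as well. Of 51 tested proteins of the plastid ribosome, 48 were lower and 38 lowest, against 34.0% and 20.8% of all tested genes. Their median log2 difference was -4.79. CqNL-6_032374 (50S ribosomal protein L35, chloroplastic) had 2 reads in the 3 stamen libraries together, against 340 ± 22.9 CPM in leaf, 7.67 ± 1.48 in pistil and 2.97 ± 0.518 in root. CqNL-6_047284 (30S ribosomal protein S1, chloroplastic) had 0.998, 1.17 and 0.839 CPM in stamen, 657 ± 41.2 in leaf, 24.2 ± 3.54 in pistil and 8.69 ± 0.831 in root. Both were below every library of the other organs, root included. Of 41 tested photosystem and light-harvesting proteins, 37 were lower than the mean of the others, but none was lowest, since root was lower still. They held 0.0114% ± 0.0033 of the stamen reads, 8.31% in leaf, 0.312% in pistil and 0.00381% in root. CqNL-6_029603 (major chlorophyll a/b binding protein LHCb1.2) had 7.84, 3.52 and 5.37 CPM in stamen, 98.8 ± 19.3 in pistil and 0.420 ± 0.236 in root. Of 27 tested Calvin cycle enzymes, 25 were lower and 3 lowest. CqNL-6_055157 (plastid glutamine synthetase 2, which assimilates ammonium in leaves) had 1.03 ± 0.618 CPM in stamen, 23.4 ± 2.39 in pistil, 40.2 ± 4.85 in root and 1791 ± 96.8 in leaf.

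Organelle RNA processing and the proteasome were also lower more often than higher. Of 230 tested pentatricopeptide repeat proteins, which process RNA in plastids and mitochondria, 151 were lower and 33 higher (15 under both scalings). Of 25 tested proteasome subunits, 18 were lower, 12 were lowest and none was higher. Over all tested genes, 34.0% were lower, 20.8% lowest and 30.1% higher. CqNL-6_032879 (Proteasome subunit alpha type-3) had 26.8, 27.9 and 19.0 CPM in stamen, 104 ± 4.44 in root, 66.4 ± 0.818 in leaf and 53.4 ± 4.87 in pistil. F-box and SKP1-like proteins, which choose the targets of degradation, were higher in 97 of 236 (62 under both) and lower in 41. Subunits of the mitochondrial respiratory chain had no clear direction. They held 0.179% ± 0.0085 of the stamen reads, 0.195% in leaf, 0.195% in pistil and 0.440% in root. With TMM 15 of 32 were higher and 3 lower, while with the total library size none of the 15 was still called higher, and the median turned from 0.86 to -0.54.

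Genes of DNA replication were mostly lower. The 8 tested genes titled histone H3.2-like, the histone H3 that is made during DNA synthesis, were all lowest in stamen, at mean levels of 0.419 to 2.88 CPM, a subgroup singled out after its values were seen. CqNL-6_007215 (histone H3.2-like, chromosome 4 from 10499637 to 10500047) had 0.998, 1.32 and 3.02 CPM in stamen, 37.0 ± 2.38 in leaf, 91.6 ± 9.14 in root and 167 ± 24.5 in pistil, a log2 fold change of -5.58 (standard error 0.22, adjusted p = 3.82e-14, edgeR). The gene titled histone H3.3-like, the form used outside of replication, went the other way. CqNL-6_010471 (chromosome 5 from 7005444 to 7010404) had 397.7, 374.9 and 407.9 CPM in stamen, 6.47 ± 1.93 in pistil, 2.73 ± 0.308 in root and 1 read in leaf, with a log2 fold change of 5.93 over pistil (standard error 0.18, adjusted p = 8.17e-15, edgeR). Of 18 tested cyclins, their regulators and replication licensing proteins, 11 were lower and 3 higher (0 under both scalings). CqNL-6_047031 (DNA replication licensing factor MCM5) had 5.42, 5.57 and 3.36 CPM in stamen, 38.9 ± 6.20 in leaf, 43.0 ± 5.26 in root and 123 ± 5.31 in pistil. CqNL-6_018235 (cyclin-D3-1-like) had 0.766 ± 0.409 CPM in stamen and 108 ± 4.81 in pistil.

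Other transcription factor families were split. NAC factors were higher in 20 of 37 (17 under both scalings) and lower in 8, and MYB factors higher in 14 of 59 (8 under both) and lower in 21. Over all tested genes 30.1% were higher, 16.0% under both scalings, and 34.0% lower, and the MYB counts were not far from these. Basic helix-loop-helix factors were more often low, with 30 of 68 lower and 11 higher (8 under both). CqNL-6_034559 (NAC transcription factor 25-like) had 190.2, 245.9 and 194.3 CPM in stamen, 3.95 ± 0.629 in pistil, 0.650 ± 0.270 in root and 0.190 ± 0.265 in leaf. CqNL-6_048152 (myb-related protein 305-like) had 176.4, 154.2 and 143.5 CPM in stamen and 12.3 ± 2.94 in pistil, and no read in leaf and root. Neither gene overlapped between stamen and another organ. Disease resistance proteins were lower in 52 of 102 and higher in 10 (4 under both).

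Of the signalling families of the study, the CqCrRLK1L receptor kinases held 0.332% ± 0.023 of the stamen reads and the CqRALF peptides 0.237% ± 0.019, with 5 of 21 and 3 of 13 tested genes higher (4 and 2 under both scalings) and 7 and 6 lower. CqNL-6_022438 (CqRALF17) and CqNL-6_007158 (CqRALF2), both titled RALF-like 19, stood at 2454 ± 178 and 2371 ± 180 CPM in stamen and at 54.0 ± 8.93 and 56.3 ± 15.4 in pistil.

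Some genes of other organs were not detectable in stamen. Of the tested genes, 2409 had 0 reads in the 3 stamen libraries, which allows a level of up to 0.152 CPM (3 reads over the group, for counting error only). Among them 192 had a mean of at least 10 CPM over the other organs. The titled ones with the highest levels belonged to root or leaf. CqNL-6_037491 (kirola-like) had 179 ± 23.0 CPM in root, CqNL-6_012702 (glutathione S-transferase U17-like) 146 ± 21.9 in leaf, and CqNL-6_030428 (peroxiredoxin Q, chloroplastic) 135 ± 14.1 in leaf. Only the last of these 3 was also lower against pistil and root each.

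The stamen replicates were similar in most genes. Over 13618 genes with at least 10 CPM in stamen, the highest replicate exceeded the lowest by a median factor of 1.20, and 361 genes (2.65%) differed by over 2-fold. A ratio over 4 was found for 29 genes, highest in replicate 1 for 12 and in replicate 2 for 17 of them, against 22 genes in leaf, 8 in pistil and 1 in root. Among titled genes CqNL-6_050792 (sugar transport protein 13) had the widest spread, with 27.7, 1.76 and 3.69 CPM. CqNL-6_028101 (pathogenesis-related protein PR-4-like) had 24.5, 3.37 and 4.70 CPM, and its log2 fold change of 0.20 did not pass (adjusted p = 0.643, edgeR) and turned to -1.35 without stamen replicate 1. Rank correlation across genes between stamen replicates was 0.963 to 0.964, below the 0.984 to 0.990 within the other organs, where genes are not independent replicates.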

How the data were processed

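Per the labels and the study's methods, reads were cleaned and mapped to the NL-6 genome with HISAT2, whose version is 2.1.0 by the processing notes of the submitters, and HTSeq gave reads per gene. The deposited counts are whole numbers without normalization. The deposited FPKM, made by the authors from those counts, served here only for levels between genes. No source used here states the strand setting or version of HTSeq or its handling of reads that match several places. Depth was 12499775 to 17019602 counted reads per library.

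Counts were filtered with filterByExpr, scaled by TMM and fitted with edgeR's quasi-likelihood test on the 12 untreated libraries, with Benjamini-Hochberg adjustment. Stamen was contrasted with the mean of the 3 other organs on the log scale, and with each organ. Where an organ had no or few reads of a gene, the fitted fold change was not used as a size, and the bound of 3 reads over an organ's libraries (0.0722 CPM in leaf, 0.0478 in root, 0.152 in stamen, 0.0436 in pistil) stood in for lower values in bounded medians. Gene lists were made by search words on the titles and have no test of their own. Members, lists and tests were chosen with earlier results of these data known. Named genes were the 10 with the largest stamen share of reads and the 10 with the largest FPKM, the 10 titled genes with the largest change in each direction (at least 50 CPM, no overlap), up to 2 called members per list and direction with the largest CPM, up to 6 titled genes without stamen reads, all CqCrRLK1L and CqRALF genes, and up to 8 titled genes with the widest stamen spread. The cation/H+ antiporters named were chosen after their values were seen. The reference gene table matched 0 of the NL-6 identifiers, so names and coordinates are those of the deposited table.

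No replicate pair was identical. Alternatives were other scalings (DESeq2's size factors, upper quartile, total library size, library size without the 100 most read genes), DESeq2's Wald test, no filter, all 15 libraries, other fold minimums, a replicate block, a reference without pistil and each replicate left out. The tools were R 4.3.3 with edgeR 4.0.16 and DESeq2 1.42.0, and Python 3.11.15 with numpy 2.4.6, scipy 1.17.1, pandas 2.3.3 and matplotlib 3.10.9.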

Additional observations from a re-analysis of the deposited data

How the results depend on the processing

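The scaling set the counts. With the total library size 5760 genes were higher, 19857 lower, 3285 highest and 13384 lowest, and without the 100 most read genes in the library size 6453, 18613, 3818 and 12637. Genes called with TMM and with the total library size, an alternative added after seeing the data, numbered 5760 higher and 3285 highest. A log2 minimum of 2 gave 7022 higher, 4355 highest and 4611 lowest genes. DESeq2 gave 10999 higher and 12465 lower genes. Leaving out 1 replicate gave 10335 to 10994 higher, 12172 to 12638 lower, 6880 to 7370 highest and 7429 to 7868 lowest genes, and 5.896% to 5.93% for the 10 leading genes, which held 4.65% of summed FPKM. With the replicate block, 10742 genes were higher and 12144 lower, 7151 highest and 7412 lowest. Adding list members by KEGG number, also chosen after seeing the data, moved 46 of 80 list counts by over 1.5 times, in lists that grew. Replicate numbers were not taken as pairs, since the same-number correlations with stamen were -0.0494 to 0.00262. Of the values of named genes under these alternatives, 5225 kept their direction and side of the threshold, 76 lost and 21 gained a call, and 18 turned. The turned log2 fold changes of genes not called with TMM were, for CqNL-6_028401, -0.10 (upper quartile), -1.32 (total library size) and -1.09 (library size without the 100 genes), for CqNL-6_016276 -1.11 and -0.89, and for CqNL-6_028101 -1.20 and -0.97 under the latter 2 scalings. With 1 replicate left out these 3 genes ranged from -0.116 to 0.147, from -0.0252 to 0.376 and from -1.35 to 0.546. Among genes called higher with TMM, the total library size turned CqNL-6_002275 (-0.024), CqNL-6_046956 (-0.0585), CqNL-6_050918 (-0.15), CqNL-6_041563 (-0.17), CqNL-6_051180 (-0.17) and CqNL-6_015732 (-0.38, and -0.16 without the 100 genes). No cause was tested beyond the scaling itself.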

Other observations

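KEGG ortholog groups that the lists above covered not at all or only in a few titled members also differed, and were named after their values were seen, with no test of their own. Of 10 tested genes with the KEGG number of epsin, an adaptor of vesicle budding, all 10 were higher in stamen, 7 of them under both scalings. Their median log2 difference was 2.59 with low levels at their bound. Of 27 genes with the number of CBL-interacting kinases, which act downstream of calcium sensors, 19 were higher (15 under both) and 6 lower. Of 16 with the number of trehalose-phosphate synthase, 11 were higher (7 under both) and 0 lower, with a bounded median of 2.18. Of 29 with the number of 3-ketoacyl-CoA synthase, which elongates fatty acids for surface lipids, 18 were higher (12 under both) and 5 lower. Of 31 genes with a number whose commonest title is serine carboxypeptidase-like 25, 22 were lower and 1 higher (0 under both), with a bounded median of -2.27. The family was not low throughout. Of 24 genes with the number of serine carboxypeptidase-like 7, 8 were higher (5 under both) and 6 lower, with a bounded median of -0.60. These medians stand beside -0.27 over all tested genes, where 30.1% were higher, 16.0% under both scalings, and 34.0% lower.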
